A study of Homo sapiens with 15 samples.

Results

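RNF5, a membrane-anchored ubiquitin ligase of the endoplasmic reticulum, was knocked down in human acute myeloid leukemia (AML) lines. Across these lines 10 histone genes were followed by their polyadenylated mRNA. They were HIST1H2BK, HIST1H2BD, HIST1H2BC, HIST1H2BJ, HIST2H2BE, HIST1H2AC, HIST1H4H, HIST1H1C, H1F0 and H2AFJ, chosen by symbol from among histone genes known to give polyadenylated or replacement transcripts. They make up 10 of the 57820 gene identifiers in the deposited tables. They are not the whole class, and other replacement genes such as H3F3A are in the list of other histone genes below. The symbols are those of the hg19 annotation. The choice was made with the knockdown values of these same libraries known, so the changes of the 10 genes are given below as descriptions and without a test.

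The 15 RNA-seq libraries came from 3 established lines that the labels call AML cell lines, each carrying either the empty lentiviral vector pLKO or a short hairpin RNA against RNF5 (shRNF5). MOLM-13 contributed 3 pLKO and 2 shRNF5 libraries, U937 contributed 2 of each and HL-60 contributed 3 of each. Both groups of a line had therefore been transduced with the vector, and no untransduced cells were used here. Which hairpin was sequenced is not given in the sources used here, the harvest is placed at 7 days in the sample labels and at 5 days in the series design, and nothing in the labels says whether replicates were separate transductions, so the spread between them may be technical.

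RNF5 gave normalized read counts of 1017 to 1223 with pLKO and 76 to 81 with shRNF5 for MOLM-13, 648 to 843 and 46 to 74 in U937, and 506 to 689 and 37 to 133 in HL-60, so that no shRNF5 library reached a pLKO library of its line. Of 7 myeloid markers fixed for a check of identity, 6 were above 0 in each line and CD68 was listed at 0. Markers of other cell types were listed at 0 in MOLM-13 and HL-60, whereas COL1A1, a collagen gene of fibroblasts, was above 0 in U937, at 234 and 39 in the pLKO and 15 and 29 in the shRNF5 libraries, and its part in the results was not tested. The steps between rounded values gave a depth of 9700000 to 63800000 counted reads in the 14 libraries where the steps could be resolved. In MOLM-13 the estimated depth ran with the construct, at 9700000 to 15300000 reads with pLKO and 63800000 in shRNF5 replicate 1. That last estimate is uncertain. Its steps gave a likelihood gain of 90.0, where 60 was the smallest accepted and the pLKO libraries gave 2047.2 to 3919.6. The depth of shRNF5 replicate 2 was not resolved, and the part of depth in the MOLM-13 values was not tested. Replicates correlated across genes at 0.944 to 0.992, and the lowest value belonged to the pair of U937 pLKO libraries, in which 9.324% of genes with a mean of at least 50 differed by more than a factor of 2.

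Histones package DNA into nucleosomes. H2A, H2B, H3 and H4 form the core around which DNA is wrapped, and linker histone H1 binds where the DNA enters and leaves it. Most histone genes sit in clusters, are transcribed during DNA replication and give messages that end in a conserved stem-loop rather than a poly(A) tail, which the stem-loop binding protein recognizes. Replacement histones are made throughout the cell cycle from messages with a poly(A) tail, and some clustered genes can also give a polyadenylated message, typically when cells leave the cycle or differentiate. Libraries made from poly(A) RNA or by oligo(dT) priming record the polyadenylated form.

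The letters after the stop codon separate the 10 genes into those of the clustered kind and those of the replacement kind, and for that reason they are shown here. GRCh37 was searched on the sense strand, over the first 150 bases after each stop codon, for the letters of the histone stem-loop, which were spelled as GG, any 2 bases, CTTTT, any 1 base, AG, any 2 bases and CC. It was present in 8 of the 10 genes and absent from H1F0 and H2AFJ. Each line below gives 30 bases, 5′ to 3′, with the 16 matching letters in capitals.
HIST1H2BK: ccccaaaGGCTCTTTTAAGAGCCacttaaa
HIST1H2BD: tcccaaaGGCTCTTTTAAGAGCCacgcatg
HIST1H2BC: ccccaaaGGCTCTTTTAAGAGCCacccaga
HIST1H2BJ: ccctaacGGCTCTTTTAAGAGCCacccatg
HIST2H2BE: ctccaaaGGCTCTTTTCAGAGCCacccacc
HIST1H2AC: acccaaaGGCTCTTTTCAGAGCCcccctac
HIST1H4H: aaccaaaGGCCCTTTTCAGGGCCgcccact
HIST1H1C: cccaaaaGGCTCTTTTCAGAGCCaccactg
These stretches lie on GRCh37 at chr6:27114138-27114167 (−) for HIST1H2BK, chr6:26158808-26158837 (+) for HIST1H2BD, chr6:26123693-26123722 (−) for HIST1H2BC, chr6:27100093-27100122 (−) for HIST1H2BJ, chr1:149857731-149857760 (−) for HIST2H2BE, chr6:26124890-26124919 (+) for HIST1H2AC, chr6:26285352-26285381 (−) for HIST1H4H and chr6:26055965-26055994 (−) for HIST1H1C. The first letter of the stem-loop was 28 to 57 bases after the stop codon. HIST1H2BK, HIST1H2BD, HIST1H2BC and HIST1H2BJ shared the same 16 letters, and HIST1H4H was the only one of the 8 with GGCC at both ends of the stem. The match was present in 53 of 55 other clustered histone genes with an annotated stop codon, in 1 of 10 other variant genes (H2AFX) and in 65 of 19763 protein-coding genes (0.329%), 62 of which were histone genes.

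The poly(A) tail was not measured in these libraries, and the annotation gives the reach of each transcript. The longest annotated transcript ran past the stop codon for 12799 bases in HIST1H2BD, 37207 in HIST1H2BC, 6473 in HIST1H2BJ, 14491 in HIST1H2AC, 7579 in HIST1H4H and 1801 in HIST2H2BE and so beyond the stem-loop. In HIST1H2BK and HIST1H1C it stopped 57 and 47 bases after the stop codon, so the annotation used here holds no long transcript of these genes. H1F0 (chr22:38201236-38203439, +) and H2AFJ (chr12:14927339-14930936, +), which lack the stem-loop, had 1303 and 3142 bases.

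Promoters of the same genes were read from RefSeq on GRCh38.p14, from 250 bases before to 50 bases after the start, and 9 of the 10 genes were matched. The octamer ATTTGCAT, the letters bound by OCT-1 at H2B promoters, was sought on both strands. It was present in 5 of 9 promoters, in 32.1% of the other clustered histone promoters and in 1.8% of all 27305 promoters. The matches are shown because 4 of the 5 belong to H2B genes and the fifth is shared between divergent genes, and the capitals mark the octamer.
HIST1H2BK: ctcttcaccttATTTGCATgagaggtccta
HIST1H2BJ: ctcttcaccttATTTGCATaagcgattcta
HIST2H2BE: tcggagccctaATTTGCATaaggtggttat
HIST1H2BC: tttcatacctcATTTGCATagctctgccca
HIST1H2AC: tgggcagagctATGCAAATgaggtatgaaa
The positions on GRCh38.p14 are chr6:27146886-27146915 (−), chr6:27132824-27132853 (−), chr1:149886710-149886739 (−) and, for HIST1H2BC (−) and HIST1H2AC (+), chr6:26124031-26124060. The last pair is therefore 1 site read from both strands, between genes whose starts are 219 bases apart. In HIST1H2BK, HIST1H2BJ and HIST2H2BE the octamer lay 46 to 47 bases before the start. The CCAAT box (CCAAT, both strands) was found in 8 of 9 promoters, in 83.0% of the other clustered histone promoters and in 35.7% of all promoters. The TATA box (TATAAA, both strands) was found in 6 of 9, in 66.0% and in 12% of the same sets. A match is a description of the letters, not evidence of a bound factor.

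In MOLM-13 all 10 genes were higher on average with shRNF5. Their log2 fold changes, on the log2(value + 1) scale that understates the change of low genes, ran from 0.65 to 1.88 with a median of 1.56, while the median over all 13026 genes was 0.01. In U937, 7 of the 9 genes above 0 were higher and the median was 0.63, and in HL-60 8 of 9 were higher and the median was 0.97, beside medians of 0 over all genes in both lines. HIST1H2BC was listed at 0 in every U937 library and H2AFJ in every HL-60 library, which in these tables means that the gene failed the authors' filter in that line. Across the 8 genes measured in all lines, HIST1H2BK, HIST1H2BJ, HIST1H2AC, HIST1H4H, HIST1H1C and H1F0 were higher on average in each line. The share of all genes higher in every line was not counted.

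The libraries of the 2 constructs did not overlap, with shRNF5 above, for 7 of 10 genes in MOLM-13, 5 of 9 in U937 and 5 of 9 in HL-60. The same held for 19.6%, 29% and 19.9% of all tested genes. All shRNF5 libraries lay below for 0 of 10, 1 of 9 and 0 of 9 genes, and for 19.2%, 30.2% and 18.6% of all tested genes. One gene was past the threshold for a rise (limma, adjusted p under 0.1 and log2 fold change over 0.4) in MOLM-13 and 1 in U937, HIST1H2BK in both, and 6 were in HL-60, where 1.03%, 6.92% and 13.6% of all genes were. None of the 10 was past the threshold for a fall, where 1.01%, 8.74% and 12.3% of all genes were. Without MOLM-13 pLKO replicate 1, 2 of the 10 were past the threshold for a rise, with 0 without replicate 2 and 1 without replicate 3. Over all genes 417, 0 and 21 rose in these fits, beside 134 in the main fit. In HL-60 leaving out 1 library gave 5 to 7 of 9, where 1055 to 1767 of all genes rose, beside 1704 in the main fit. Leaving out a U937 library or a MOLM-13 shRNF5 library left 1 library in a group, so no counts are given there. Nothing is drawn from these counts, because the genes were chosen from the same contrast. In bulk RNA a higher value can come from more cells with the transcript or more transcript per cell, and these cannot be told apart. A larger share of the transcript with a poly(A) tail cannot be told apart from them either. The total of each transcript, with and without a tail, was not measured.

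**Figure D1:**
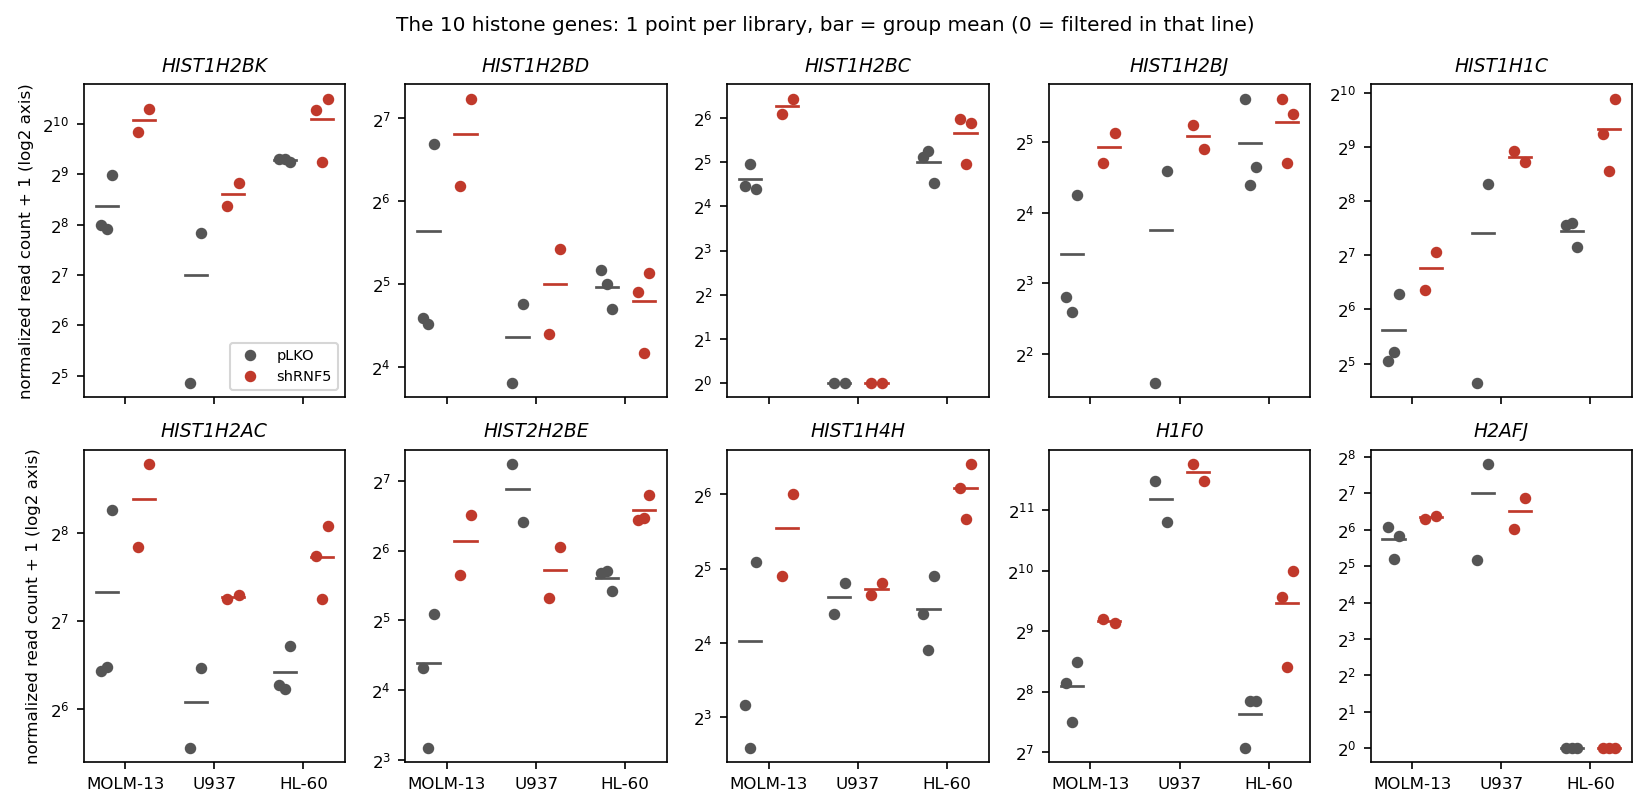
Normalized read count plus 1 on a log2 axis for each of the 10 genes, with 1 point per library, pLKO in grey, shRNF5 in red and a bar at the group mean. The HIST1H1C values of HL-60 were 142 to 193 with pLKO and 374 to 947 with shRNF5, whereas HIST2H2BE in U937 was 84 to 150 with pLKO and 39 to 65 with shRNF5; points at 0 are genes filtered in that line.

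HIST1H2BK is a gene for H2B, a core histone of the nucleosome. The lines were normalized separately, so values of different lines are set side by side and are not ranked. In MOLM-13 its normalized read counts were 253, 239 and 505 with pLKO and 916 and 1263 with shRNF5, a log2 fold change of 1.78 (SE 0.33). In U937 they were 28 and 228 against 331 and 451, a log2 fold change of 2.25 (SE 0.74). In HL-60 they were 630, 636 and 606 against 1236, 608 and 1452, a log2 fold change of 0.72 (SE 0.26). Both constructs separated in MOLM-13 and U937, while in HL-60 shRNF5 replicate 2 lay among the pLKO libraries. HIST1H2BK shared 39.0% of its 75-base windows with other genes, most often with H2BFS, which was listed at 0 in all 15 libraries. Its value is therefore uncertain to the extent that shared reads were dropped or assigned to one copy.

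HIST1H2BJ, another H2B gene of the chromosome 6 cluster, had values under 50 in every library. They were 6, 5 and 18 with pLKO and 25 and 34 with shRNF5 in MOLM-13, 2 and 23 against 37 and 29 in U937, and 48, 20 and 24 against 48, 25 and 41 in HL-60. The groups separated in MOLM-13 and U937 and overlapped in HL-60, where the log2 fold change was 0.35 (SE 0.38).

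HIST1H2BD and HIST1H2BC are H2B genes whose annotated transcripts extend far past the stem-loop. HIST1H2BD gave 23, 22 and 102 with pLKO and 72 and 150 with shRNF5 in MOLM-13, 13 and 26 against 20 and 42 in U937, and 35, 31 and 25 against 29, 17 and 34 in HL-60. Its groups overlapped in all 3 lines, and its log2 fold change of -0.22 (SE 0.34) in HL-60 was the only one below 0 there. HIST1H2BC separated in MOLM-13, where it gave 21, 30 and 20 with pLKO and 67 and 86 with shRNF5 (log2 fold change 1.66, SE 0.37), and overlapped in HL-60, where it gave 34, 37 and 22 against 62, 30 and 58. Its long transcript overlaps HFE on the opposite strand, and whether the counting used strand is not given in the sources used here.

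HIST2H2BE, the H2B gene of the chromosome 1 cluster, went in opposite directions. It was higher in MOLM-13, with 19, 8 and 33 for pLKO and 49 and 90 for shRNF5, and in HL-60, with 50, 51 and 42 against 86, 87 and 110. In U937 it was lower, with 150 and 84 for pLKO and 39 and 65 for shRNF5. In each line its groups did not overlap, and the log2 fold changes were 1.88 (SE 0.60) in MOLM-13, 0.97 (SE 0.22) in HL-60 and -1.14 (SE 0.49) in U937. The difference between lines was not tested, since the gene was chosen with these values known.

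HIST1H2AC, which encodes an H2A and shares its promoter region with HIST1H2BC, had log2 fold changes of 1.26 (SE 0.56), 1.26 (SE 0.44) and 1.28 (SE 0.24) in MOLM-13, U937 and HL-60. Its values were 85, 88 and 305 with pLKO and 228 and 438 with shRNF5 in MOLM-13, where pLKO replicate 3 exceeded one shRNF5 library. They were 46 and 87 against 151 and 156 in U937, and 76, 74 and 104 against 212, 151 and 269 in HL-60, with no overlap in either line.

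HIST1H4H, a gene for H4, the core histone that pairs with H3, separated in HL-60, where it gave 20, 14 and 29 with pLKO and 67, 50 and 84 with shRNF5 (log2 fold change 1.65, SE 0.33). In MOLM-13 it gave 8, 5 and 33 against 29 and 63, and in U937 20 and 27 against 24 and 27. The groups overlapped in MOLM-13 and U937, and the U937 log2 fold change was 0.13 (SE 0.61).

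The linker histone genes HIST1H1C and H1F0 were the 2 genes of the 10 whose shRNF5 libraries all lay above the pLKO libraries in all 3 lines. Line by line 19.6%, 29% and 19.9% of all tested genes were so placed, and the share in all 3 lines was not counted. HIST1H1C encodes H1.2 and carries the stem-loop. It gave 32, 36 and 77 with pLKO and 81 and 133 with shRNF5 in MOLM-13, 24 and 316 against 482 and 419 in U937, and 187, 193 and 142 against 600, 374 and 947 in HL-60. The log2 fold changes were 1.20 (SE 0.45), 2.34 (SE 0.86) and 1.79 (SE 0.28).

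H1F0 encodes H1.0, the replacement linker histone that accumulates in differentiated and non-dividing cells. It gave 283, 179 and 359 with pLKO and 587 and 561 with shRNF5 in MOLM-13, 2864 and 1780 against 3470 and 2867 in U937, and 133, 229 and 229 against 755, 340 and 1021 in HL-60. The log2 fold changes were 1.12 (SE 0.29), 0.48 (SE 0.28) and 1.74 (SE 0.35) in that order, and in U937 the nearest libraries of the 2 groups were 2864 and 2867.

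H2AFJ, which encodes the H2A variant H2A.J, separated in MOLM-13 and not in U937. It gave 66, 36 and 56 with pLKO and 78 and 83 with shRNF5 in MOLM-13, a log2 fold change of 0.65 (SE 0.35). In U937 it gave 35 and 223 against 64 and 116, and the pLKO libraries enclosed both shRNF5 libraries.

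**Figure D2:**
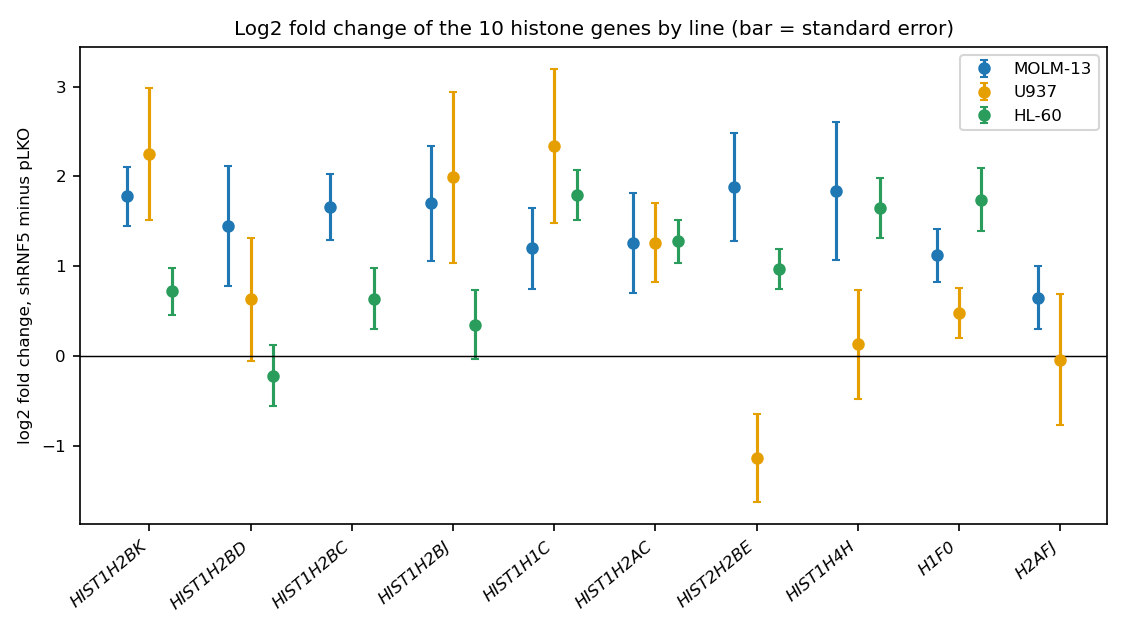
Log2 fold change (shRNF5 minus pLKO, on log2 of the normalized read count plus 1) of each gene in MOLM-13 (blue), U937 (orange) and HL-60 (green), with bars for the standard error. HIST1H2AC sits at 1.26, 1.26 and 1.28 in the 3 lines, and HIST2H2BE is the gene with a value of -1.14 in U937 against 1.88 in MOLM-13.

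Single libraries moved the values of most of these genes together. The mean of the line-centred log2 values of the 10 genes was -0.83 and -1.12 in MOLM-13 pLKO replicates 1 and 2 but 0.20 in replicate 3, against 0.58 and 1.17 with shRNF5. In U937 it was -1.16 in pLKO replicate 2 and 0.29 in pLKO replicate 3, against 0.30 and 0.57 with shRNF5. In HL-60 it was -0.42 to -0.54 with pLKO, 0.65 and 0.90 in shRNF5 replicates 1 and 3 and -0.06 in shRNF5 replicate 2. That HL-60 library also had the highest RNF5 value of its group, 133 against 37 and 43. In MOLM-13 and U937 the shRNF5 library with more RNF5, 81 against 76 and 74 against 46, had instead the higher mean. The part of the RNF5 level in these means was not tested.

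Without U937 pLKO replicate 2 the median log2 fold change of the 9 genes in U937 was 0.49, and without pLKO replicate 3 it was 1.28. For HIST1H2BK, HIST1H2BJ and HIST1H1C in U937 the log2 fold changes were 0.76, 0.49 and 0.51 without replicate 2 and 3.74, 3.49 and 4.17 without replicate 3. H2AFJ turned from -1.36 without replicate 2 to 1.28 without replicate 3, and HIST1H4H from -0.08 to 0.33. Without MOLM-13 pLKO replicate 3 the median in MOLM-13 was 1.99, and over the other libraries left out there it was 1.20 to 1.88. In HL-60 the median was 0.85 to 1.10 over the 6 libraries left out in turn, and HIST1H2BD there ranged from -0.42 to 0.06.

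Over the 15 libraries, with each line centred, the 28 pairs among the 8 genes measured in all lines had Pearson correlations from 0.18 for HIST2H2BE with HIST1H1C to 0.94 for HIST1H2BJ with HIST1H2BK, with a median of 0.65. The libraries of a line share their normalization and the construct contrast, so these are descriptions. Among 9621 other genes with a mean of at least 50 in each line, the profiles most like the mean of the 10 genes were those of PCGF3 (r = 0.88), PLA2G12A (0.88), VMP1 (0.88), CEP19 (0.87) and COPS7A (0.86). PCGF3 encodes a Polycomb group RING finger protein and VMP1 an endoplasmic reticulum protein of autophagy. Their log2 fold changes in MOLM-13, then U937, then HL-60 were 0.56, 0.27 and 0.19 for PCGF3, 0.27, 0.28 and 0.18 for PLA2G12A, 0.27, 0.25 and 0.31 for VMP1, 1.12, 1.66 and 1.22 for CEP19, and 0.72, 0.80 and 0.56 for COPS7A.

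The other histone genes were compared through a list of 72, which held 62 clustered and 10 variant genes. This list and the lists further below were chosen with earlier results of these data known. Their counts and adjusted p values are therefore not independent support. Most of the clustered genes were listed at 0, and only 3 of them exceeded 0 in MOLM-13 and 5 in each of the other lines. Of the 10 variant genes 8 exceeded 0 in MOLM-13, 8 in U937 and 9 for HL-60. Of the tested genes on the list, 0 rose and 1 fell of 11 in MOLM-13, 1 rose and 1 fell of 13 in U937, and 2 rose and 1 fell of 14 in HL-60 (limma). Over all genes 2.04%, 15.7% and 25.9% were called in either direction. Without adjustment, 5, 5 and 7 of the list had a p under 0.05, where 17%, 27.1% and 35% of all genes had. The median log2 fold changes over the list were -0.08, 0.33 and 0.37. With 1 MOLM-13 pLKO library left out, the count was 2 without replicate 1 and 0 without replicate 2 or 3. Over all genes 417 rose and 455 fell without replicate 1, 0 and 1 without replicate 2, and 21 and 20 without replicate 3. The MOLM-13 count thus moved with the calls over all genes. In HL-60 the count was 2 to 7, with 6 without pLKO replicate 2 and 7 without shRNF5 replicate 1. Over all HL-60 genes 1055 to 1767 rose and 864 to 1646 fell. Leaving out a U937 library or a MOLM-13 shRNF5 library left 1 library in a group, so no counts are given there.

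H2AFX, the H2A variant phosphorylated at DNA breaks, fell in MOLM-13 from 1729 ± 239.6 (SD, n = 3) with pLKO to 874.5 ± 105.4 (SD, n = 2) with shRNF5, a log2 fold change of -0.98 (limma adjusted p = 0.0682). H2AFV, a gene for H2A.Z, rose in U937 by a log2 fold change of 1.21 (adjusted p = 0.039) and in HL-60 by 0.46 (adjusted p = 0.0168, limma). HIST3H2A, a clustered H2A gene, fell by 2.07 on the log2 scale in U937 (limma adjusted p = 0.0425), and HIST1H2BN, a clustered H2B gene, rose by 0.77 in HL-60 (limma adjusted p = 0.0325). H3F3A, a gene for the replacement histone H3.3, fell by 0.65 on the log2 scale in HL-60 (limma adjusted p = 0.0372).

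**Figure D3:**
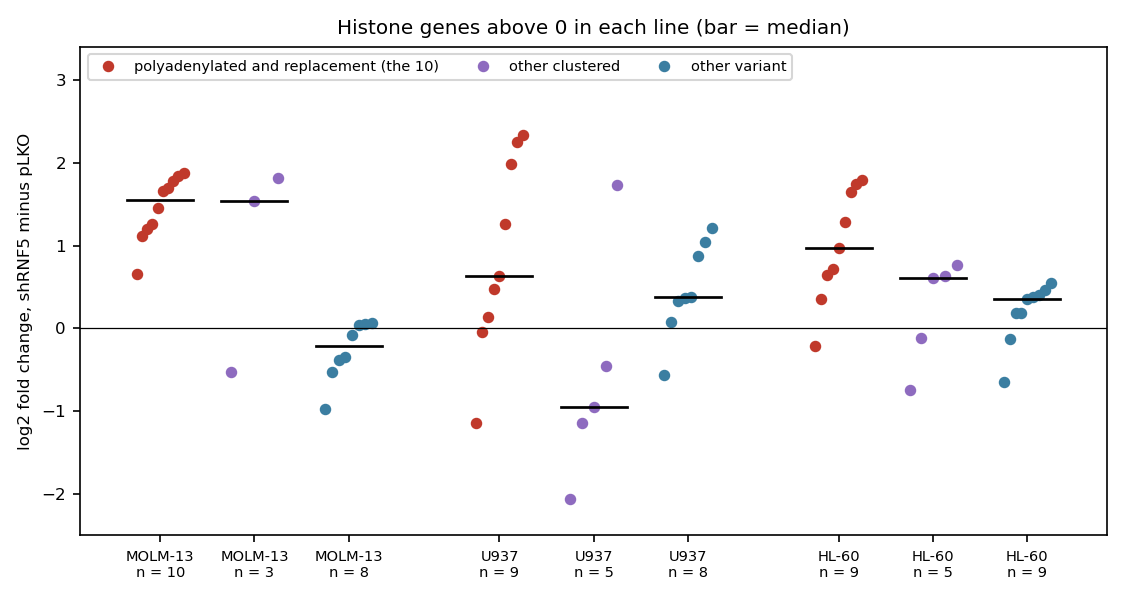
Log2 fold change of every histone gene above 0 in each line, with the 10 genes in red, other clustered genes in purple, other variant genes in blue and a bar at the median. The red medians were 1.56, 0.63 and 0.97, the purple medians 1.54, -0.95 and 0.61 over 3, 5 and 5 genes, and the blue medians -0.21, 0.38 and 0.35.

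Besides the pair HIST1H2BC and HIST1H2AC, 3 of the 10 genes had a divergent histone neighbour. HIST1H2AH, whose start is 251 bases from that of HIST1H2BK, was listed at 0 in every library. HIST2H2AC, 236 bases from HIST2H2BE, was above 0 in HL-60 and in neither other line. There it gave 31, 59 and 30 with pLKO and 29, 38 and 39 with shRNF5 while HIST2H2BE separated. HIST1H2AG, 248 bases from HIST1H2BJ, gave 27, 51 and 95 with pLKO and 140 and 236 with shRNF5 in MOLM-13, 20 and 16 against 7 and 11 in U937, and 35, 44 and 44 against 84, 58 and 51 in HL-60, and it did not pass the test in any line (limma adjusted p = 0.154, 0.438 and 0.129).

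The response to shRNF5 was compared between lines in a single fit over all libraries. Of the 72 other histone genes, 11 were above 0 in all 3 lines and could be compared. Of these 11, 6 differed between MOLM-13 and U937, where 15.4% of 11072 genes did, 2 between MOLM-13 and HL-60, where 8.82% did, and 6 between U937 and HL-60, where 37.2% did. HIST1H2AG and HIST1H2BN were higher on average with shRNF5 in MOLM-13 and lower in U937. The differences in log2 fold change were 2.76 (SE 0.66, limma adjusted p = 0.0255) and 2.69 (SE 0.61, limma adjusted p = 0.0221). Neither gene was called in MOLM-13 or U937 alone, where the limma adjusted p of HIST1H2BN was 0.185 and 0.199. The first count was 0 to 8 when 1 library was left out, and it was 0 without MOLM-13 shRNF5 replicate 2 and without U937 shRNF5 replicate 1. The second was 0 to 3, with 0 without MOLM-13 shRNF5 replicate 1, and the third 2 to 6, with 2 without U937 shRNF5 replicate 1 and 3 without U937 pLKO replicate 2.

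Genes that make and handle histone messages and proteins, a list of 34 with transcription and 3′ end processing factors and histone chaperones, were counted in the same fits. In MOLM-13, 1 rose and 0 fell of 33, in U937 1 rose and 0 fell of 33, and in HL-60 2 rose and 3 fell of 34 (limma), with median log2 fold changes of -0.12, 0.37 and -0.07. Over all genes 2.04%, 15.7% and 25.9% were called. Without adjustment, 9, 8 and 9 had a p under 0.05, beside 17%, 27.1% and 35% of all genes. UBN2, a subunit of the HIRA complex that deposits H3.3, rose in MOLM-13 by 0.82 (limma adjusted p = 0.0872), and CSTF2, a cleavage and polyadenylation factor, rose in U937 by 1.06 (limma adjusted p = 0.0546). In HL-60 NPAT, the coactivator of replication-dependent histone genes, fell from 1310.7 ± 111.3 to 755.7 ± 125 (SD, n = 3 each, limma adjusted p = 0.00613). IPO4, an importin for H3 and H4, fell there by 1.53 on the log2 scale, from a mean of 71.3 to 23.7 (limma adjusted p = 0.00567). MBLAC1, a nuclease of histone message 3′ ends, rose there by 1.28, from a mean of 12.3 to 30.7 (limma adjusted p = 0.0273). Low values such as these carry the most error. ANP32E, a chaperone that removes H2A.Z, rose by 0.41 (limma adjusted p = 0.0826). With 1 library left out the counts were 3 to 6 in HL-60, with 3 without pLKO replicate 3. In MOLM-13 they were 4 without pLKO replicate 1 and 0 without pLKO replicate 2 or 3. The MOLM-13 calls over all genes, given above, moved likewise. Fits that left 1 library in a group are not counted here.

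S phase genes were set beside the histone genes because clustered histone genes are transcribed in S phase. Of 21 genes, 0 rose and 0 fell in MOLM-13 (limma), 6 rose and 0 fell in U937, and 4 rose and 1 fell in HL-60. Over all genes 1.03%, 6.92% and 13.6% rose and 1.01%, 8.74% and 12.3% fell. At an unadjusted p under 0.05 there were 10, 13 and 8 of the 21, beside 17%, 27.1% and 35% of all genes. In MOLM-13 leaving out pLKO replicate 1 gave 2 calls, both falls, where 417 genes rose and 455 fell over all genes. The median log2 fold changes were -0.38, 0.74 and -0.07. CCNE2, a cyclin of S phase entry, rose by 3.06 in U937 (limma adjusted p = 0.0036) and by 1.16 in HL-60 (limma adjusted p = 0.00962), and RRM2, a subunit of ribonucleotide reductase, rose by 2.20 in U937 (limma adjusted p = 0.0144). In HL-60 TK1, thymidine kinase, rose by 0.84 (limma adjusted p = 0.00546) and CCNE1 fell by 0.70 on the log2 scale (limma adjusted p = 0.00885). The 6 calls in U937 rest on 2 libraries of each construct. Leaving out 1 of them leaves 1 library in a group, so no counts are given for those fits.

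**Figure D4:**
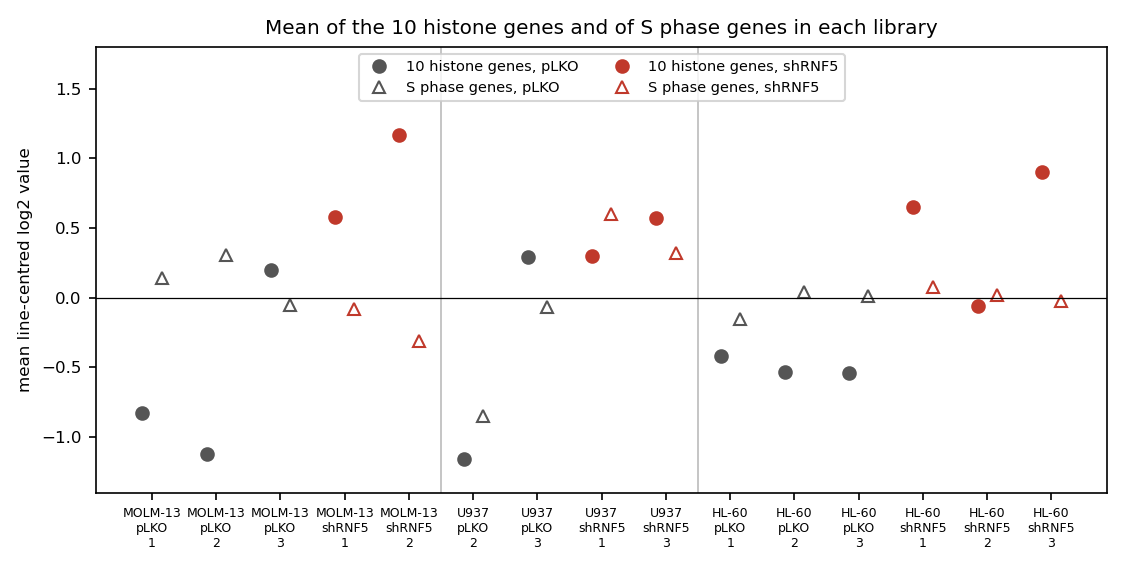
Mean of line-centred log2 values in each library for the 10 histone genes (circles) and 21 S phase genes (triangles), with pLKO in grey and shRNF5 in red. In MOLM-13 shRNF5 replicate 2 the histone mean was 1.17 and the S phase mean -0.31, whereas in U937 pLKO replicate 2 both were low, at -1.16 and -0.85.

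In MOLM-13 the S phase mean was 0.14, 0.31 and -0.05 with pLKO and -0.08 and -0.31 with shRNF5, in U937 -0.85 and -0.07 against 0.60 and 0.32, and in HL-60 -0.15 to 0.04 against -0.02 to 0.08. Its part in the values of the histone genes was not tested.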

How the data were processed

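Alignment to hg19 by STAR, gene counting by featureCounts and scaling by edgeR within SARTools, line by line, were done by the authors. What they deposited is a score, a normalized read count without decimals, in which a gene removed by their filter appears as 0. The kit in the labels primes at 3′ ends, and the kit in the study's methods selects poly(A) RNA and keeps strand. For that reason levels of different genes were not compared.

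Libraries were grouped by the line, construct and replicate number of the labels. Tests used limma 3.58.1 in R 4.3.3 on log2(value + 1), with moderated variances that follow the mean (a trend), for genes above 0 in any library of a line. Genes were called at a Benjamini-Hochberg adjusted p under 0.1 with a log2 fold change beyond 0.4 in either direction, adjusted over all genes tested, and the calls between lines at an adjusted p under 0.1 in 1 fit over 11072 genes. The procedure was also run on simulated data with the same relative spread set for all genes. The real libraries may vary more, so nothing is drawn from that run. Sequences came from GRCh37 with GENCODE annotation and from RefSeq promoters on GRCh38.p14. Counting intervals were left out because normalized values are not counts.

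The 10 genes and all lists were chosen with earlier results of these data known. Genes named in the text are the 10, RNF5, up to 2 called genes with the largest rise and 2 with the largest fall per list and line, histone genes whose start lies within 1000 bases of a member on the other strand, and the 5 genes most like the mean profile. H2BFS and the genes whose response differed between lines were added after their values had been seen. Other alternatives were the pseudocount (0.5 or 10), a mean of at least 50, another scaling, no trend, an adjusted p under 0.05, 1 fit over all libraries, a replicate block and leaving out each library. Some results of the marker check are not reported here.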

Additional observations from a re-analysis of the deposited data

Results flagged for a closer look

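Results were singled out where the response to shRNF5 differed between lines. HIST2H2BE was higher in every MOLM-13 and HL-60 shRNF5 library and lower in both U937 shRNF5 libraries than in any pLKO library of the line. The difference in log2 fold change was 3.02 for MOLM-13 minus U937 and -2.11 for U937 minus HL-60, and it was not tested.

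For the other histone genes named here the difference itself passed limma's test at an adjusted p under 0.1. That list too was chosen with earlier results of these data known. For MOLM-13 minus U937 the differences in log2 fold change were -1.17 for H2AFV, -0.73 for H3F3B, -1.39 for H2AFZ, -1.31 for H2AFX, 2.76 for HIST1H2AG and 2.69 for HIST1H2BN. For MOLM-13 minus HL-60 they were -0.70 for H3F3B and -1.37 for H2AFX. For U937 minus HL-60 they were 0.74 for H2AFV, 1.69 for H3F3A, 0.68 for H2AFZ, -1.12 for H1FX, -1.56 for HIST1H2AG and -1.92 for HIST1H2BN. The comparisons share the libraries of a line, so the differences are not independent of each other. No group held 4 or more libraries, so single outlying libraries could not be tested.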

How the results depend on the processing

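There were 446 alternative values. Of those for the main counts and medians, 63 moved by more than the set limits and 140 did not. Of those for single genes of the 10, 1 moved and 242 did not. The limit for these was the gene's own residual spread within groups. Leaving out 1 library of U937 or HL-60 cannot shift a log2 fold change past that limit, so nothing is drawn from this count. HIST1H1C in U937, at 2.34 in the main fit, was 0.51 and 4.17 with 1 pLKO library left out and was counted as not moved. Directions of single genes on the other lists were not followed, and among the 10 genes H2AFJ and HIST1H4H in U937 and HIST1H2BD in HL-60 changed sign when 1 library was left out (-1.36 to 1.28, -0.08 to 0.33 and -0.42 to 0.06). Without the mean-variance trend the calls among other histone genes numbered 0 (MOLM-13), 1 (U937) and 5 (HL-60), those among histone supply genes 0 in MOLM-13 and 0 in U937, and the S phase calls 2 in U937. At an adjusted p under 0.05 the other histone calls were 0 in MOLM-13, the supply calls 0 (MOLM-13), 0 (U937) and 3 (HL-60), and the genes differing between MOLM-13 and HL-60 1. In 1 fit over all 15 libraries the other histone calls were 3 in MOLM-13 and 4 in U937, the supply calls 0 (MOLM-13), 12 (U937) and 2 (HL-60), and the S phase calls 1 (MOLM-13), 17 (U937) and 3 (HL-60). With a mean of at least 50 the other histone calls were 4 in U937, and the supply calls 2 in U937 and 3 in HL-60. With a pseudocount of 10 the supply calls in U937 were 2, and the log2 fold change of HIST1H2BC in MOLM-13 was 1.36. The cause of these changes was not tested.

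With 1 library left out, the other histone calls were 0 to 2 (MOLM-13), 0 to 4 (U937) and 2 to 7 (HL-60), the supply calls 0 to 4, 0 to 4 and 3 to 6, and the S phase calls 0 to 2, 0 to 13 and 4 to 6. The genes differing were 0 to 8 between MOLM-13 and U937, 0 to 3 between MOLM-13 and HL-60 and 2 to 6 between U937 and HL-60. The medians of the 10 genes were 1.20 to 1.99, 0.49 to 1.28 and 0.85 to 1.10. Where an arm kept 1 library, that library was assumed to vary like the others.

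A fit with a replicate block (the replicate number of the labels) gave 3, 3 and 2 MOLM-13 calls for other histone, supply and S phase genes. The HL-60 calls were 4, 5 and 5. Over all genes 384 rose and 354 fell in MOLM-13, and 1878 rose and 1702 fell in HL-60. The medians of the 10 genes were 1.99 and 0.97. Past the threshold for a rise were 7 of 10 in MOLM-13 and 6 of 9 in HL-60. Nothing is drawn from these member counts, because the genes were chosen from the same contrast. Same-numbered libraries correlated in their deviations at -0.173 and -0.53 in MOLM-13 and at 0.505, 0.156 and -0.109 in HL-60, where not every library correlated best with its own number, so the libraries were not treated as paired. The deposited tables number the MOLM-13 shRNF5 libraries 2 and 3 where the labels number them 1 and 2. By the numbers of the tables the correlations were 0.53 and 0.281, so the MOLM-13 block above holds for the label numbers only, and pairing by the other numbers was not fitted. No paired analysis was possible in U937 because its groups share 1 number. Depth was not resolved for 1 library, and values under 50 carry the most error.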
